A study of Mus musculus with 6 samples.

Results

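The genes described here encode mitochondrial complex I, and were taken as every gene on the array whose only symbol in the probe annotation begins with Ndufa, Ndufb, Ndufc, Ndufs or Ndufv. This gave 44 of the 18194 genes with a single-symbol probe set. By name, 36 are counted as subunits and 8, with names beginning Ndufaf, as assembly factors. The 36 include Ndufa4, which has since been placed in complex IV, and its relative Ndufa4l2, and both stay in the subunit counts below. They are covered by 88 probe sets, and the values of a gene below are those of its brightest one, judged by the mean of all 6 arrays. Complex I is the entry point of electrons from NADH into the respiratory chain. Its matrix arm holds a flavin and a chain of iron-sulfur clusters that pass the electrons to ubiquinone, and its membrane arm pumps protons. The catalytic core is shared with bacteria, the accessory subunits were added around it, and assembly factors help to build the complex without staying in it. Embryonic stem cells in the naive state respire actively, and primed cells of the later epiblast lean more on glycolysis.

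RNA was measured in R1 mouse embryonic stem cells on Affymetrix Mouse Genome 430 2.0 arrays, with 3 arrays from cells carrying shRNA1 against KIAA1718 and 3 from cells carrying an shRNA against luciferase. Both groups had received their short hairpin RNA on a lentivirus and had been sorted for GFP. No age, genotype or further treatment is given. KIAA1718 is the protein of Kdm7a, a histone demethylase, and the question here is how complex I transcripts differ when the hairpin aims at it and not at luciferase. A single hairpin was used for the target, so its effects on other transcripts cannot be told apart from those of targeting KIAA1718, and since the labels do not tie the replicates to separate infections or cultures, the spread behind the p-values may be technical.

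Median deposited signals ran from 9.58 to 13.3 across the arrays, so the signals below are quantile-normalized ones, and differences are in log2(signal + 16), KIAA1718 shRNA1 minus luciferase shRNA, tested with limma. Signals of different probe sets are not levels that can be ranked against each other. The target itself gave no check of the labels. Kdm7a had signals of 42.2, 23.0 and 30.2 in KIAA1718 shRNA1 cells, against 38.5, 37.0 and 39.2 in luciferase shRNA cells. Its log2 difference was -0.20 (limma adjusted p = 0.533). Its dimmer tested probe sets differed by -0.16 and -0.22 (limma adjusted p = 0.584 and 0.461), the latter without overlap between the groups. All 8 embryonic stem cell markers listed were measured, with group means of 432 or more, and 1 of them, Utf1, fell by 0.44 on the log2 scale (adjusted p = 0.0243). Of the 8, 7 lay below 0 and 1, Tdgf1, above, with a median of -0.12 (limma, 3 lower at an unadjusted p under 0.05). Nanog at -0.42 and Zfp42 at -0.22 did not pass (adjusted p = 0.158 and 0.153). The 18 fibroblast markers listed were measured too, none of them at 0, and all 18 lay below 0 in log2 difference. None passed the threshold (limma, 7 at an unadjusted p under 0.05), and their median was -0.44. Their summed signal was 8373, 10299 and 10519 on KIAA1718 shRNA1 replicates 1, 2 and 3, against 8634, 14528 and 14034 on luciferase shRNA replicates 1, 2 and 3. Luciferase replicate 1 thus lay within the range of the KIAA1718 shRNA1 arrays. In these bulk samples fewer cells of a type and less RNA per cell cannot be told apart.

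Within the KIAA1718 shRNA1 group, replicate 2 stood apart for complex I. It gave the highest signal of the 3 arrays for 29 of the 35 tested subunits, whereas it was the highest of the 3 for 37.5% of all 12741 tested genes. The summed signal of the 35 subunits was 23108, 26506 and 22699 on KIAA1718 shRNA1 replicates 1, 2 and 3, against 26189, 27347 and 26331 on luciferase shRNA replicates 1, 2 and 3. The groups overlapped through replicate 2 alone, which was above luciferase replicates 1 and 3.

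**Figure D1:**
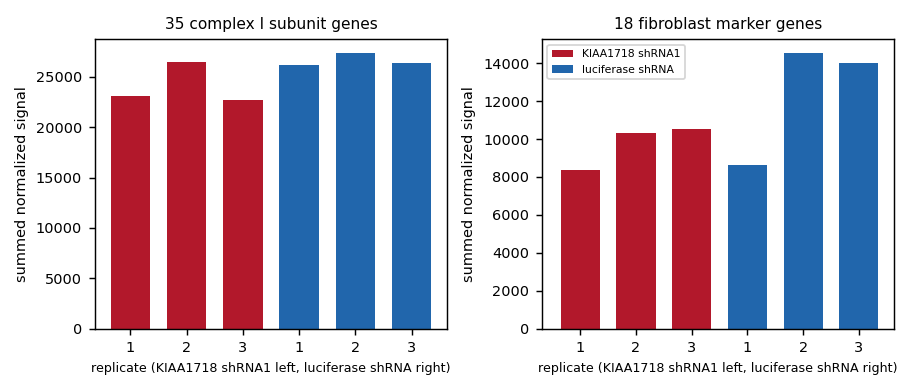
Summed quantile-normalized signal (linear scale, vertical axes) of the 35 tested complex I subunit genes (left) and of 18 fibroblast marker genes (right) on each array, with the 3 KIAA1718 shRNA1 replicates left of the 3 luciferase shRNA replicates. For the subunits KIAA1718 shRNA1 replicate 2, at 26506, sits among the luciferase arrays, and for the fibroblast markers luciferase replicate 1, at 8634, sits among the KIAA1718 shRNA1 arrays.

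Complex I subunit transcripts were lower by small amounts in a minority of genes, and none passed the test as higher. Of 35 subunits tested, 5 fell and 30 did not pass the threshold of adjusted p under 0.05. The 5 that fell were Ndufs8, Ndufs1, Ndufv1, Ndufb3 and Ndufa10, by 0.59 to 0.35 on the log2 scale. Thus 14.3% of the subunits were called lower, against 2.19% of all 12741 genes tested, of which 2.68% were called higher and 4.87% either way. The genes compared were not matched to the subunits for signal. With the dimmest 60% of probe sets left out, 17.6% of 34 subunits were called lower, against 3.23% of 9701 genes. No subunit was called higher (limma, also 0 at an unadjusted p under 0.05). The groups did not overlap, with KIAA1718 shRNA1 the lower, for 9 of 35 subunits, or 25.7%, against 13.4% of all genes (27.9% in either direction). No subunit was without overlap and higher, against 14.5% of all genes. The median difference of the subunits was -0.10, with 29 of 35 below 0, against 0.00 for all genes. With the signals as deposited that median was 0.043, above 0, while the median of all genes was 0.11, so that the subunits lay 0.06 below it.

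The count of subunits that fell changed with single arrays and with the fit, as did the calls over all genes. It was 0 with the signals as deposited, 0 without limma's intensity trend and 0 with the fibroblast marker mean as a covariate, where the subunits' median was -0.07. Of all genes, 0.54%, 1.31% and 0.37% were called lower in these fits, against 2.19% in the main one. With 1 array left out the count of subunits was 1, 5 and 1 without KIAA1718 shRNA1 replicates 1, 2 and 3, and 2, 1 and 0 without luciferase shRNA replicates 1, 2 and 3. In the same order, 1.49%, 1.20% and 0.68% of all genes were called lower, and 2.09%, 0.89% and 0.53%. Without KIAA1718 shRNA1 replicate 2 the median of the subunits was -0.18 and 34 of 35 lay below 0. With replicate number as a block, which the arrays' deviations allow, 7 of 35 subunits fell and none rose, where 3.78% of all genes fell and 4.07% rose, 7.85% in all. The 2 added were Ndufb8 (adjusted p = 0.0263) and Ndufa13 (adjusted p = 0.0495).

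**Figure D2:**
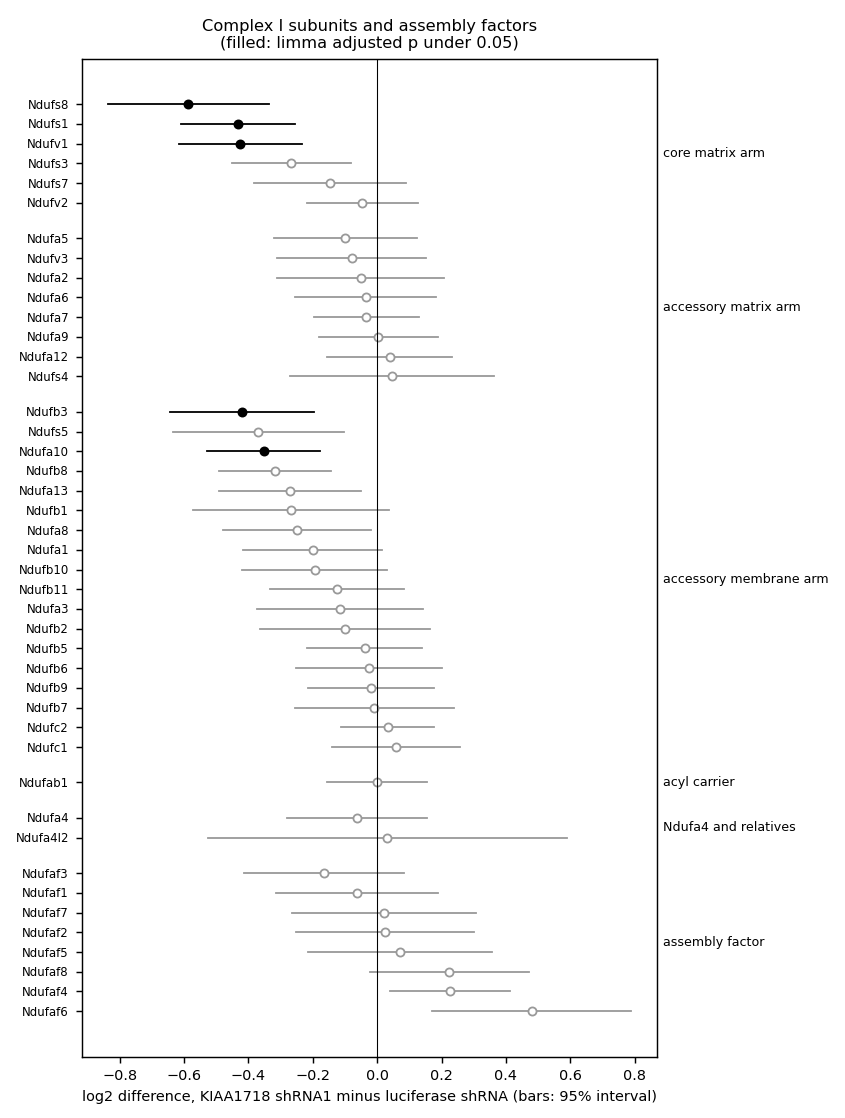
Log2 difference, KIAA1718 shRNA1 minus luciferase shRNA, of each of the 43 tested complex I genes (horizontal axis, with the 95% interval from limma as a bar), ordered within role groups named at the right. Filled points mark the 5 genes with an adjusted p under 0.05, of which 3 are core subunits of the matrix arm and 2 are accessory subunits of the membrane arm.

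The core subunits of the matrix arm carry the flavin and the iron-sulfur clusters. Of the 6 tested, 3 fell, the other 3 did not pass, and all 6 lay below 0, with a median of -0.35. Ndufs1, the largest subunit, which binds several iron-sulfur clusters, had signals of 587, 544 and 619.6 in KIAA1718 shRNA1 cells, against 784, 793 and 799.7 in luciferase shRNA cells. All luciferase arrays were above all KIAA1718 shRNA1 arrays. The log2 difference was -0.43 ± 0.08 (SE, 95% interval -0.61 to -0.25, limma adjusted p = 0.0160), which is 25.9% lower on that scale. Ndufs1 kept its call in 12 of 16 alternatives and lost it without luciferase replicate 3 (adjusted p = 0.0785), with the fibroblast marker covariate (-0.42, adjusted p = 0.138), without the intensity trend (adjusted p = 0.0709) and with the signals as deposited (adjusted p = 0.342).

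Ndufv1 binds the flavin and takes the electrons from NADH. Its signals were 648, 772 and 698 in KIAA1718 shRNA1 cells, against 937, 1016 and 905 in luciferase shRNA cells. The groups did not overlap, and KIAA1718 shRNA1 replicate 2 was the array of its group nearest to the luciferase arrays. Ndufv1 fell by 0.43 on the log2 scale (SE 0.09, 95% interval -0.62 to -0.23, limma adjusted p = 0.0234). Its other 2 tested probe sets differed by -0.35 and -0.27 (adjusted p = 0.0640 and 0.167). Leaving out any array other than KIAA1718 shRNA1 replicate 2 ended the call, with differences of -0.46 to -0.37.

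Ndufs8, an iron-sulfur subunit on the path to ubiquinone, had signals of 641, 843 and 659.8 in KIAA1718 shRNA1 cells, against 949, 1101 and 1184 in luciferase shRNA cells. The ranges were apart, again with KIAA1718 shRNA1 replicate 2 nearest. Its log2 difference of -0.59 ± 0.11 (SE, 95% interval -0.84 to -0.34, limma adjusted p = 0.0187) was the furthest from 0 of any member. Ndufs8 has 6 tested probe sets, all below 0. The other 5 ran from -0.40 to -0.16 and did not pass, and 2 of them, with group means of 780.3 and 702 in KIAA1718 shRNA1 cells against 890.3 and 795 in luciferase shRNA cells, differed by -0.19 and -0.18. With the mean over the gene's probe sets the difference was -0.32 (adjusted p = 0.158), so the size for Ndufs8 depends on the probe set. The call was also lost without KIAA1718 shRNA1 replicates 1 or 3 (adjusted p = 0.0574 and 0.0786) and without luciferase replicates 2 or 3 (adjusted p = 0.0600 and 0.106).

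Ndufs3, another core subunit of the matrix arm, had signals of 449.8, 449 and 454 in KIAA1718 shRNA1 cells, against 539, 523 and 576 in luciferase shRNA cells. The groups did not overlap, yet the difference of -0.27 did not pass (limma adjusted p = 0.112). Ndufs7, which holds the last iron-sulfur cluster before ubiquinone, differed by -0.15 and Ndufv2, the partner of Ndufv1 at the NADH end, by -0.05, and both overlapped between groups (adjusted p = 0.517 and 0.810).

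Accessory subunits of the membrane arm lie along the proton-pumping part. Of 18 tested, 2 fell, 16 did not pass, and 16 lay below 0, with a median of -0.16. Ndufb3 had signals of 435, 555 and 452 in KIAA1718 shRNA1 cells, against 635, 673 and 628 in luciferase shRNA cells. No KIAA1718 shRNA1 array reached the lowest luciferase array. Ndufb3 fell by 0.42 on the log2 scale (SE 0.10, 95% interval -0.64 to -0.20, limma adjusted p = 0.0466), close to the threshold, and leaving out any array other than KIAA1718 shRNA1 replicate 2 ended the call, with differences of -0.44 to -0.36.

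Ndufa10, a subunit on the matrix face of the membrane arm, had signals of 660.1, 656 and 664 in KIAA1718 shRNA1 cells, against 819.9, 809 and 915 in luciferase shRNA cells. Unlike most subunits, it did not stand higher on KIAA1718 shRNA1 replicate 2. Its log2 difference was -0.35 ± 0.08 (SE, 95% interval -0.53 to -0.18, limma adjusted p = 0.0368), and leaving out any 1 array ended the call, with differences of -0.38 to -0.30. A second, dim probe set of Ndufa10, with group means of 16.5 in KIAA1718 shRNA1 cells and 15.1 in luciferase shRNA cells, differed by 0.06 (adjusted p = 0.831), and with the mean of both probe sets the difference was -0.14 and did not pass.

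In this arm Ndufb8 came near the threshold, and Ndufs5, Ndufa8 and Ndufa13 lay below 0 without passing. Ndufb8, a subunit of the distal membrane arm, had signals of 1144, 1295 and 1100 in KIAA1718 shRNA1 cells, against 1561, 1470 and 1385 in luciferase shRNA cells. The groups did not overlap, and the difference of -0.32 ± 0.08 (SE) missed the threshold (limma adjusted p = 0.0520). Its second probe set, dim at means of 10.8 in KIAA1718 shRNA1 cells and 5.90 in luciferase shRNA cells, differed by 0.28 (adjusted p = 0.325). Ndufs5, which faces the intermembrane space, had signals of 120.2, 153 and 129.7 in KIAA1718 shRNA1 cells, against 165, 181 and 188 in luciferase shRNA cells, a difference of -0.37 with no overlap (adjusted p = 0.121). A brighter probe set shared by Ndufs5 and its pseudogene Ndufs5-ps, which the rule does not take, differed by -0.20 (adjusted p = 0.357). Ndufa8, on the same side of the membrane, differed by -0.25, also without overlap (adjusted p = 0.224), and Ndufa13, known as well as Grim19, by -0.27 (adjusted p = 0.171).

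The remaining membrane arm subunits did not pass and their groups overlapped. Ndufb1, at means of 73.1 ± 14.7 in KIAA1718 shRNA1 cells and 90.4 ± 5.50 in luciferase shRNA cells (SD, n = 3 each), differed by -0.27 (limma adjusted p = 0.333). Ndufa1 differed by -0.20, Ndufb10 by -0.19, Ndufb11 by -0.12, Ndufa3 by -0.12 and Ndufb2 by -0.10. Ndufb5, Ndufb6, Ndufb7 and Ndufb9 lay between -0.04 and -0.01, and Ndufc2 and Ndufc1 were at 0.03 and 0.06. Ndufb11 had a further probe set that was called lower, at -0.52 ± 0.08 (SE, limma adjusted p = 0.00663), with means of 469 in KIAA1718 shRNA1 cells and 681 in luciferase shRNA cells, while its 2 brighter probe sets differed by -0.12 and -0.10. The single-symbol probe set of Ndufb4 was too dim to be tested, with signals of 1.57 to 6.68 in KIAA1718 shRNA1 cells and 3.65 to 9.33 in luciferase shRNA cells. A bright probe set shared by Ndufb4, Ndufb4b and Ndufb4c, which the rule does not take, differed by -0.36 (adjusted p = 0.0691). Other bright shared probe sets differed less, that of Ndufa11 and Ndufa11b by -0.11 and that of Ndufs6 and Ndufs6b by 0.00 (adjusted p = 0.594 and 0.990).

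Accessory subunits of the matrix arm differed little by their brightest probe sets. None of 8 passed (limma, also 0 at an unadjusted p under 0.05), their median was -0.03, and their differences ran from -0.10 to 0.05. The furthest were Ndufa5, at means of 616 ± 79.9 in KIAA1718 shRNA1 cells and 657 ± 28.8 in luciferase shRNA cells, and Ndufv3, at 580.3 ± 76.7 in KIAA1718 shRNA1 cells and 612 ± 46.0 in luciferase shRNA cells (SD, n = 3 each), with differences of -0.10 and -0.08 (adjusted p = 0.662 and 0.746). The 95% interval of this probe set of Ndufa5 was -0.32 to 0.12, so a fall of the size seen for Ndufs1 lay outside it. A dimmer probe set of Ndufa5 differed by -0.52 and the dimmest of Ndufa7 by -0.31. Both had groups without overlap and an unadjusted p under 0.05, and neither passed (limma adjusted p = 0.0686 and 0.202). The other dimmer probe sets of Ndufa7 ran from -0.13 to -0.07. Ndufs4, a late-joining subunit whose loss in mice gives a Leigh-like brain disease, differed by 0.05 with an interval of -0.27 to 0.36. Ndufa7 was at -0.03, Ndufa2 at -0.05, Ndufa6 at -0.04, Ndufa9 at 0.00 and Ndufa12 at 0.04.

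Probe sets of a gene did not always read alike. Of 22 members with several tested probe sets, 14 had all on one side of 0 and 8 had them on both sides, which are Ndufa10, Ndufa12, Ndufab1, Ndufb2, Ndufb7, Ndufb8, Ndufc1 and Ndufs4. Ndufab1, the mitochondrial acyl carrier protein, which also serves lipoic acid and iron-sulfur cluster synthesis, averaged 1045 ± 14.2 in KIAA1718 shRNA1 cells and 1047 ± 55.8 in luciferase shRNA cells (SD, n = 3 each), a difference of -0.00 with a 95% interval of -0.16 to 0.16. One of its dimmer probe sets read 64.6, 275 and 70.5 in KIAA1718 shRNA1 cells, against 43.6, 42.9 and 49.4 in luciferase shRNA cells (difference 1.05, limma adjusted p = 0.151), with KIAA1718 shRNA1 replicate 2 far above the rest. A bright probe set shared by Ndufab1 and Ndufab1-ps, which the rule does not take, differed by 0.21, without overlap (limma adjusted p = 0.307). Ndufa4, named as a complex I subunit but since placed in complex IV, differed by -0.06 (adjusted p = 0.792). Its relative Ndufa4l2, which is induced by hypoxia, had signals of 22.1, 3.17 and 3.13 in KIAA1718 shRNA1 cells, against 2.15, 10.3 and 11.4 in luciferase shRNA cells, with 1 high array in the first group and no separation.

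Most assembly factors with Ndufaf names lay above 0, where most subunits, and most assembly factors with other names, lay below it. None of the 8 Ndufaf genes passed (limma, 2 higher and 0 lower at an unadjusted p under 0.05), 6 of 8 lay above 0, and their median was 0.05. The difference between subunits and assembly factors was not tested. Ndufaf6, a factor for an early step around the membrane subunit ND1, had signals of 129.7, 173 and 133 in KIAA1718 shRNA1 cells, against 116, 93.8 and 88.6 in luciferase shRNA cells. All KIAA1718 shRNA1 arrays were higher, and the difference of 0.48 ± 0.14 (SE, 95% interval 0.17 to 0.79) did not pass (adjusted p = 0.0884, and 0.0597 to 0.420 over the alternatives). Ndufaf4, which acts with Ndufaf3 on early assembly, had signals of 495, 535 and 501 in KIAA1718 shRNA1 cells, against 432, 440.1 and 429 in luciferase shRNA cells, a difference of 0.23 without overlap (adjusted p = 0.176).

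Ndufaf8, the partner of Ndufaf5, differed by 0.22 with overlapping groups (limma adjusted p = 0.311), and Ndufaf5 by 0.07. Ndufaf3 was at -0.17, Ndufaf1 at -0.06, Ndufaf7, a methyltransferase, at 0.02 and Ndufaf2 at 0.03. Of 12 assembly factors with other names, among them Ecsit, Acad9 and Timmdc1, none passed (limma, 2 lower and 0 higher at an unadjusted p under 0.05). Of these 12, 8 lay below 0 and 4 above, with a median of -0.05 and a range of -0.36, in Nubpl, to 0.18, in Timmdc1. Nubpl delivers iron-sulfur clusters to complex I. The mitochondrially encoded subunit ND5 differed by -0.23 (adjusted p = 0.331).

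The 5 subunits that fell share their chromosomes. Ndufs1, Ndufb3 and Ndufa10 lie on chromosome 1 and Ndufs8 and Ndufv1 on chromosome 19. Ndufb8, just outside the threshold, lies on chromosome 19 too, and these are all of the tested subunits on the 2 chromosomes. Of the 6 tested there, 5 fell and all 6 had groups without overlap, with a median of -0.42. Of the 29 subunits tested on other chromosomes none passed (limma, 4 lower and 0 higher at an unadjusted p under 0.05), and the median was -0.05. Without overlap and lower were 3, or 10.3%, against 13.4% of all genes, and without overlap and higher 0, against 14.5%. Still, 23 of the 29, or 79.3%, lay below 0, against 49.8% of all genes. These counts take the brightest probe set of each gene, and the dimmer one of Ndufb11 that was called lower, at -0.52, is on chromosome X. The split was made after the values were seen and has no test.

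**Figure D3:**
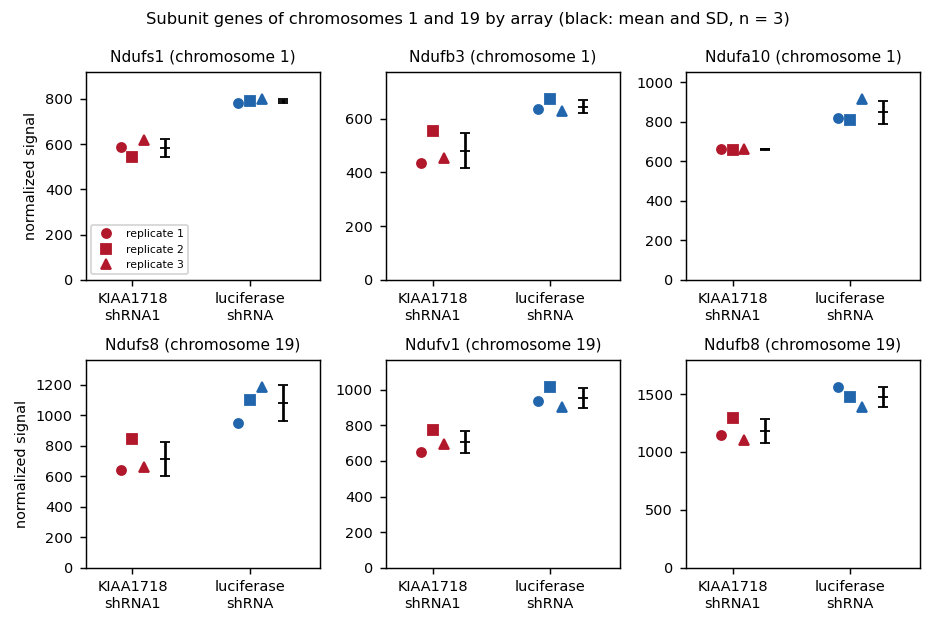
Quantile-normalized signal (vertical axes, linear and starting at 0) of the 6 tested subunits on chromosomes 1 and 19, by array, with KIAA1718 shRNA1 left of luciferase shRNA and replicates marked by shape. Black bars give the mean and SD of 3 arrays. In each panel the highest KIAA1718 shRNA1 array is below the lowest luciferase array.

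Most other genes of these chromosomes lay below 0 as well. On chromosome 1 the 718 other tested genes had a median of -0.13, with 73.3% below 0, and 6.41% were called lower. On chromosome 19 the median of 455 other genes was -0.14, with 76.3% below 0 and 5.93% called lower. The members' medians there were -0.42 on chromosome 1 and -0.43 on chromosome 19. These chromosomes were singled out because the subunits that fell lie on them. That the members' medians lie below those of the other genes follows from this choice and is no separate result. Chromosomes 12 and 14 had medians of -0.14 and -0.15, and the only member tested on them, Ndufb1 on chromosome 12, was at -0.27. Chromosome 11, at a median of 0.14, was the highest of the chromosomes with members, and its 1 member Ndufaf8 was at 0.22. The part of these shifts in the members' differences was not tested.

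**Figure D4:**
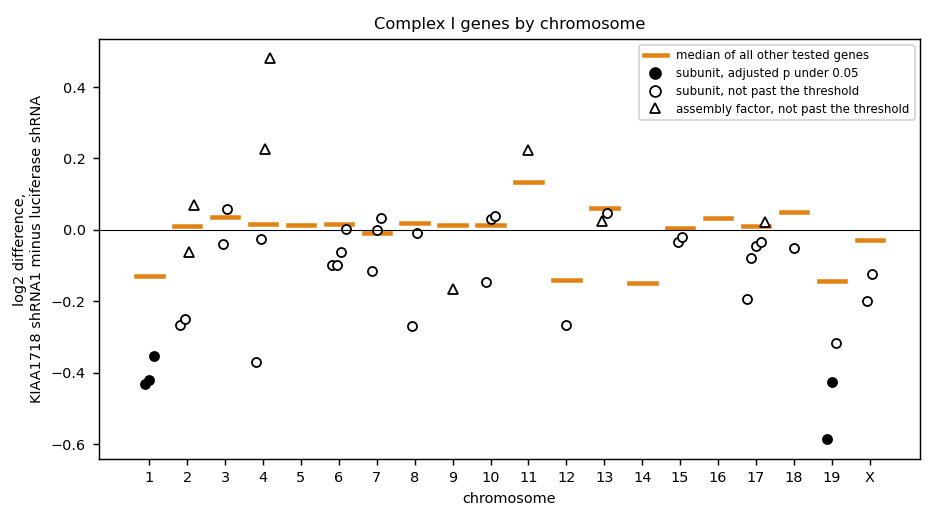
Log2 difference, KIAA1718 shRNA1 minus luciferase shRNA (vertical axis), of complex I genes by chromosome (horizontal axis). Circles are subunits, triangles assembly factors, filled symbols have an adjusted p under 0.05, and orange bars give the median of all other tested genes of the chromosome. The filled circles are on chromosomes 1 and 19, whose bars lie at -0.13 and -0.14.

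Closer neighbours gave a similar picture in part. For Ndufv1 the 20 nearest tested genes, 10 on each side and other members left out, had a median of -0.23 with 17 below 0, and for Ndufs8 the 20 nearest had a median of -0.21 with 17 below 0. These sets overlap, since Ndufs8 and Ndufv1 are close on chromosome 19, with 11 annotated genes between them, of which 5 were tested. Of the 5, 4 lay below 0, with a median of -0.21. The neighbours of Ndufb3 and Ndufa10 had medians of -0.17 and -0.16, those of Ndufb8 -0.14 and those of Ndufs1 -0.07, with 12 of 20 below 0. Around Ndufs5 on chromosome 4, itself at -0.37, the neighbours had a median of 0.10, and around Ndufaf6, also on chromosome 4, 0.15 with 1 of 20 below 0.

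The upstream sequences of the subunits that fell are shown because these are the members past the threshold, with Ndufs5 beside them as a subunit on another chromosome whose difference of -0.37 did not pass. They are the 250 bases before the annotated start from RefSeq, given 5′ to 3′ on the gene's strand. Capitals mark matches, on either strand, to motifs of factors known to act on nuclear genes of the respiratory chain: NRF1, ETS factors such as GABP (CCGGAAGT), oestrogen-related receptors (AAGGTCA) and YY1 (AANATGGC).
Ndufs8, GRCm38.p6, chr19:3912775-3913024, minus strand: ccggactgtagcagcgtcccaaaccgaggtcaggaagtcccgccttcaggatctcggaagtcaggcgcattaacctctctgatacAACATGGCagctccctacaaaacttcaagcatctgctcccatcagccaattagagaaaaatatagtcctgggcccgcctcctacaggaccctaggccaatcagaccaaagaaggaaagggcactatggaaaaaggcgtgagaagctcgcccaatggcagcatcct
Ndufv1, GRCm38.p6, chr19:4012756-4013005, minus strand: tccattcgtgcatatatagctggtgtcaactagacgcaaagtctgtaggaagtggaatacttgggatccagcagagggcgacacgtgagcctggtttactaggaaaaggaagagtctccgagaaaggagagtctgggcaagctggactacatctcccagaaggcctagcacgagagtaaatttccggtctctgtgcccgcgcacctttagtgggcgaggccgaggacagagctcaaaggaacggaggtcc
Ndufb3, GRCm38.p6, chr1:58586147-58586396, plus strand: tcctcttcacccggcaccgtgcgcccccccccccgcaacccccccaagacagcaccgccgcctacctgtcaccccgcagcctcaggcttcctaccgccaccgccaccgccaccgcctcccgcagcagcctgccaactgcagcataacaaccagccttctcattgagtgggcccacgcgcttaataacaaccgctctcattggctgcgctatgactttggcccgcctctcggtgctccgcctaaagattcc
Ndufa10, GRCm38.p6, chr1:92473759-92474008, minus strand: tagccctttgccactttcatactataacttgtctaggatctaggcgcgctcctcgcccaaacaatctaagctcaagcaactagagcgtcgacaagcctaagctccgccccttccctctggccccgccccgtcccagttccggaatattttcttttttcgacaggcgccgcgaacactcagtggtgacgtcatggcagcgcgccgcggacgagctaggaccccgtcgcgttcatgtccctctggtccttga
Ndufs5, GRCm38.p6, chr4:123718187-123718436, minus strand: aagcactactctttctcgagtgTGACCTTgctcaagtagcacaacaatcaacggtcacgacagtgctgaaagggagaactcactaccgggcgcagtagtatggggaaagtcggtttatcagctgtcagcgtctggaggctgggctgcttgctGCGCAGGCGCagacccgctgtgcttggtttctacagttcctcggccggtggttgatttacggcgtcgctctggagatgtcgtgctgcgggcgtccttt

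Of the 36 subunits 32 had an upstream sequence, and Ndufs1 is named only. The NRF1 letters were found for 4 of 32 subunits, or 12.5%, which are Ndufa5, Ndufa8, Ndufb4 and Ndufs5, and for 9.09% of the 10262 tested genes with such a window. The YY1 letters were found for 5 of 32, or 15.6%, against 5.14% of tested genes, the receptor letters for 3 of 32, or 9.38%, against 3.57%, and the ETS letters for 0 of 32, against 6.43%. The 32 include Ndufb4, too dim to be tested, while the comparison takes tested genes only. Ndufb4 held both the NRF1 and the receptor letters, so these shares would be lower among tested subunits. No motif overlapped another in the sequences printed. Of the 4 printed subunits that fell, Ndufs8 held the YY1 letters and the other 3 held none of the motifs, while Ndufs5 held the receptor and the NRF1 letters. Ndufaf4 held the NRF1 letters as well. A match is a description of the letters, not a bound site.

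Among regulators of mitochondrial gene expression, 2 of 15 tested fell, or 13.3%, against 2.19% of all genes. None rose, against 2.68% of all genes, and the median was -0.11. The 2 that fell were Esrrb, an oestrogen-related receptor of the naive pluripotency network, and Pprc1, a co-activator of the PGC-1 family that works with NRF1. Pprc1, on chromosome 19, had signals of 600.3, 531 and 554 in KIAA1718 shRNA1 cells, against 715, 832 and 800.4 in luciferase shRNA cells, a difference of -0.47 ± 0.09 (SE, limma adjusted p = 0.0177). Esrrb had signals of 334, 181 and 262 in KIAA1718 shRNA1 cells, against 573, 560.1 and 619 in luciferase shRNA cells, a difference of -1.16 ± 0.17 (SE, adjusted p = 0.00400). Of the 15, 6 had groups without overlap and KIAA1718 shRNA1 lower, where 13.4% of all genes did. Ppargc1b, a co-activator related to Pprc1, at -0.32 and Yy1 at -0.24 were among them and did not pass (adjusted p = 0.209 and 0.156). Nrf1 at -0.15, Gabpa at 0.08, Esrra at -0.15 and Tfam at -0.11 did not pass (adjusted p of 0.529 or higher).

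Respiratory complexes II to V gave counts of the same order. Of 36 subunit genes 3 fell, or 8.33%, against 2.19% of all genes, and none rose, against 2.68%, with a median of -0.08. Sdhc of complex II fell by 0.47 and Cox5b of complex IV by 0.29 on the log2 scale (limma adjusted p = 0.0431 and 0.0489), and both lie on chromosome 1. Atp5j of complex V, on chromosome 16, fell by 0.32 (adjusted p = 0.0400). The 3 genes of complexes II to V tested on chromosomes 1 and 19, with Cox8a at -0.33 (adjusted p = 0.0727) as the third, had a median of -0.33, and the 33 on other chromosomes -0.08. The difference between complex I and the other complexes was not tested.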

How the data were processed

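Intensity is the unit of the deposited table, on a linear scale, with 1 value for each probe set and array. The submitters' processing notes name GCOS, without settings. Groups and replicate numbers came from the sample titles. After leaving out 64 control probe sets, the deposited intensities were quantile-normalized, a pseudocount of 16 was added and log2 taken, which understates differences of dim genes. Ranked by mean deposited signal, the dimmest 40% were dropped, and the other 27023 were fitted with limma 3.58.1 (R 4.3.3; lmFit, eBayes with trend), two-sided, with Benjamini-Hochberg adjustment over all of them and a threshold of 0.05. Symbols were updated through Entrez numbers with RefSeq (GRCm38.p6), which also gave chromosomes and neighbours. Of 45037 probe sets, 34945 had 1 symbol, 932 several and 9160 none here. Genes are counted by their brightest probe set. Over all genes 279 were lower and 341 higher, against 69 and 298 with signals as deposited and 333 and 248 with median scaling. In signals simulated from these arrays, with 27023 probe sets fitted, 7.46% of 67 changes of 0.5 (log2) were recovered, 71.6% of 67 of 1 and 90.9% of 66 of 1.5. The simulation gave 119 calls, counted in probe sets. In the data 620 genes were called by their brightest probe sets alone, with as many probe sets fitted. The adjusted threshold was thus stricter in the simulation, and its recovery is not that of the real fit.

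Members and lists were chosen with earlier results of these data known. The rule for naming took every member past the threshold, by role the 2 furthest, the brightest and the dimmest, genes whose probe sets disagree, and from each list up to 4 of those past the threshold; other genes named were chosen after their values were seen. Same-numbered arrays deviated together (r = 0.202, 0.124 and 0.129), each over 0.1, against -0.150 to 0.0246 for the other pairs. Deviations were taken from the group means, so these values are not independent of each other. The numbers were taken as pairs from the data alone, the labels being silent on what they mark. Values with the block stand where they change the call of a member, and are not given for genes of the other lists. Any pair of arrays differed in 45100 or more probe sets, so none was a copy. The number of arrays limits the precision.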

Additional observations from a re-analysis of the deposited data

How the results depend on the processing

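Of 16 alternatives, 6 kept the count of subunits that fell within 1.5 times of 5, and 10 lowered it. It was 0 with signals as deposited, where the subunits' median was 0.043, 0 without the intensity trend in limma and 0 with the mean of the fibroblast markers as a covariate; at an unadjusted p under 0.05 limma then gave 2, 8 and 6 lower. It was 1 with no filter on low signals and 3 with the mean over a gene's probe sets, and 0 to 5 when 1 array was left out. No subunit was called higher and no assembly factor was called under any of the 16. The subunits' median stayed below 0 in the other 15, from -0.18 to -0.03. Ndufs1 kept its call in 12 of 16, Ndufs8 and Ndufv1 in 7 and Ndufb3 and Ndufa10 in 5, all keeping their direction in every one. The block of replicate numbers added Ndufb8 and Ndufa13, for 7 subunits lower, and changed no other call of a member. All genes gave 620 calls, 367 with signals as deposited, 197 with no filter, 388 without the trend, 1000 with the block, 123 with the covariate and 161 to 525 without 1 array. The cause of these changes was not tested.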
